A study of Saccharomyces cerevisiae with 6 samples.

Results

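Purine-rich positions of the yeast 35S gene were defined from sequence alone as positions at which at least 8 of the last 10 nucleotides of the RNA, counting the 3′ nucleotide itself, were A or G. The rule selected 675 of 6858 positions (9.84%), of which 497 had 8 purines, 154 had 9 and 24 had 10. The members lay in 198 uninterrupted runs, so neighbouring members share most of their 10 nucleotides and are not independent of each other. The spacers ETS1, ITS1, ITS2 and ETS2, which are removed during rRNA processing, held 149 members of 1504 positions, and the 18S, 5.8S and 25S sequences held 526 of 5354. Each member was compared with the other positions of its own region, 6183 positions in all. Native elongating transcript sequencing (NET-Seq) libraries came from 3 cultures of *rpa190-F1205H* yeast and 3 cultures of WT yeast, grown at 30 °C to an OD600 of 0.3. In the mutant the chromosomal RPA190 gene is replaced by HIS3 and the Rpa190 subunit comes from a pRS315 plasmid that carries the F1205H allele, and Rpa135 has a C-terminal 3×HA tag for immunoprecipitation. The WT strain is described in the methods as the appropriate parent, with no further genotype. The mutant is thus a single allele carried on a plasmid.

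RNA polymerase I (Pol I) transcribes the rDNA into a single precursor that is cut into the 18S, 5.8S and 25S rRNAs. The growing RNA stays paired with the template DNA in a short RNA:DNA hybrid behind the active site, and the make-up of that hybrid is known to influence how stably the polymerase holds the template. The trigger loop of Rpa190, in which the substituted residue lies, folds over the incoming nucleotide during catalysis. NET-Seq immunoprecipitates Pol I and maps the 3′ end of the RNA it holds, so the last nucleotides before a mapped end approximate the hybrid, and many reads at a position reflect many polymerases caught there.

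The members with the 5 greatest rises in the spacers (108, 538, 539, 558 and 3116) and the 3 greatest in the rRNA genes (2398, 4100 and 5006) are shown here because their sequences overlap or share short words, together with the neighbouring members 102, 106, 3114 and 5009, and with 2666, the highest ITS1 member in the mutant. Each line gives a stretch of the RNA from 5′ to 3′, read from the sequence deposited with the values (R64, chromosome XII, minus strand), with the last 10 nucleotides up to and including the mapped 3′ end in capitals. Lower-case letters are the nucleotides on either side.
ETS1 position 102, chrXII:467458-467487: uggccucgucAAACGGUGGAgagagucgcu
ETS1 position 106, chrXII:467454-467483: cucgucaaacGGUGGAGAGAgucgcuaggu
ETS1 position 108, chrXII:467452-467481: cgucaaacggUGGAGAGAGUcgcuagguga
ETS1 position 538, chrXII:467022-467051: aagcuuuuugAACAGAGAGCauuuccggca
ETS1 position 539, chrXII:467021-467050: agcuuuuugaACAGAGAGCAuuuccggcag
ETS1 position 558, chrXII:467002-467031: auuuccggcaGCAGAGAGACcugaaaaagc
ITS1 position 2666, chrXII:464894-464923: cuauuccaaaCGGUGAGAGAuuucugugcu
ITS2 position 3114, chrXII:464446-464475: uguuuuuuuuCCAAAGAGAGguuucucugc
ITS2 position 3116, chrXII:464444-464473: uuuuuuuuccAAAGAGAGGUuucucugcgu
18S position 2398, chrXII:465162-465191: ggaucugcuuAGAGAAGGGGgcaacuccau
25S position 4100, chrXII:463460-463489: agggugaagcCAGAGGAAACucugguggag
25S position 5006, chrXII:462554-462583: gucuuauggcUGGAAGAGGCcagcaccuuu
25S position 5009, chrXII:462551-462580: uuauggcuggAAGAGGCCAGcaccuuugcu
The stretch around positions 102 to 108 shows 3 members of a single purine-rich stretch that behaved differently, and positions 5006 and 5009 show a rise and a fall only a few nucleotides apart.

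Values are RPM, the reads at a position per 1000000 reads of the library up to the mark T1 near the end of the gene. The mutant libraries held 3155425 to 3687549 reads in the 35S gene and the WT libraries 2028349 to 3087916. Spacer members held 67196 to 81445 reads in the mutant libraries and 12423 to 15944 in the WT libraries. The spacers as a whole took 12.1 to 12.3% of the reads in the mutant libraries and 3.81 to 4.45% in the WT libraries, so spacer positions of any sequence were mostly higher in the mutant in RPM. The ratio of members to other positions of the same region within a library does not depend on that scaling. Because reads of mature rRNA can be carried along with Pol I, the spacers are described first.

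In the spacers, members held more reads per position than other positions in both strains, and the excess was greater in the mutant. Spacer members averaged 146, 143 and 148 RPM in the 3 mutant libraries, against 34.2, 41.1 and 34.7 RPM in the 3 WT libraries. The libraries of the strains did not overlap. Other spacer positions averaged 74.1 ± 0.57 RPM in the mutant and 26.5 ± 1.97 RPM in WT (SD, n = 3 each). Relative to the other positions of their own region, spacer members were 1.86 ± 0.02-fold as high in the mutant and 1.38 ± 0.07-fold as high in WT (SD, n = 3 each). On the log2 scale this ratio was 0.90, 0.87 and 0.90 in the mutant libraries and 0.47, 0.53 and 0.38 in the WT libraries, a difference of 0.43 with no overlap between strains. With 3 libraries against 3, a two-sided exact permutation test cannot give a p below 0.1, and none was computed for these averages. Members took 17.8 ± 0.17% of the spacer reads in the mutant and 13.2 ± 0.71% in WT, while they made up 9.91% of spacer positions.

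The excess over other positions differed between the 4 spacers. In ITS2 the 13 members were 2.97 ± 0.08-fold as high as other positions in the mutant and 0.68 ± 0.09-fold in WT. On the log2 scale the ratio in WT was -0.57 ± 0.18 against all others but 0.10 ± 0.16 without pyrimidine-rich positions among the others. It was 0.12 ± 0.15 with region ends left out and 0.21 ± 0.32 from medians. In these comparisons the ratio in the mutant was 1.57 to 1.73, but it moved further under others. With the top 1% of positions left out, which left 12 members, it was 1.15 ± 0.04 in the mutant and -0.27 ± 0.17 in WT. With at least 7 purines it was 0.92 ± 0.02 in the mutant and -0.09 ± 0.12 in WT. With 1 member per run it was 2.51 ± 0.04 in the mutant and -0.16 ± 0.08 in WT. Members took 15.0 ± 0.35% of ITS2 reads in the mutant and 3.85 ± 0.49% in WT. In ETS2 the 17 members were 1.95 ± 0.03-fold as high as other positions in the mutant and 0.50 ± 0.07-fold in WT. The low WT value in ETS2 went with reads at pyrimidine-rich positions, where at least 8 of the last 10 nucleotides were C or U. These 18 positions averaged 23.6 ± 0.76 RPM in the mutant and 120 ± 17.1 RPM in WT, and without the pyrimidine-rich positions among the others the log2 ratio of ETS2 members was 1.00 ± 0.02 in the mutant and 0.62 ± 0.14 in WT. In ITS1 the 38 members were 2.01 ± 0.05-fold as high as other positions in the mutant and 1.54 ± 0.05-fold in WT. In ETS1 the 81 members were 1.70 ± 0.02-fold as high in the mutant and 1.55 ± 0.08-fold in WT, the narrowest gap of the 4 spacers. In ETS1 the strains changed order, to a difference of -0.068 on the log2 scale, when 7 purines were enough, and in ITS1 the difference was -0.12 when at least 7 of the last 8 nucleotides had to be purines.

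**Figure D1:**
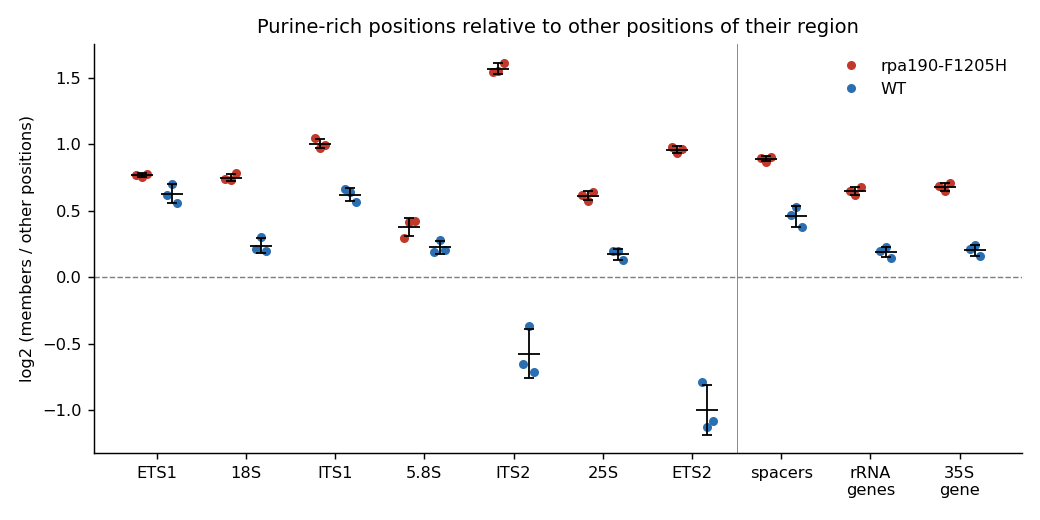
Log2 ratio of the mean reads at purine-rich positions to the mean at other positions of the same region, for each library (points), with the mean and SD of 3 libraries per strain in black. Mutant libraries lie above WT libraries in all 7 regions, with the widest gaps in ITS2 (1.57 against -0.57) and ETS2 (0.96 against -1.0).

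A single position set much of the ETS1 value in WT. Position 102 in ETS1 read 557, 622 and 636 RPM in the mutant libraries and 946, 1262 and 894 RPM in the WT libraries. It was the highest member of ETS1 in WT, held 25.2% of the WT reads at ETS1 members against 4.12% of the mutant reads, and fell in the mutant (log2 fold change -0.76 ± 0.14 SE, limma adjusted p = 0.0012). With it left out, the log2 ratio of ETS1 members to other positions was 0.73 ± 0.02 in the mutant and 0.23 ± 0.04 in WT, and that of all spacer members was 0.86 ± 0.02 in the mutant and 0.17 ± 0.05 in WT, a difference of 0.69. This omission was chosen after the values were seen.

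The same comparison was made position by position with limma on log2(RPM + 1), with p-values adjusted over the 6843 positions that had any reads, and all 675 members were among them. Of 149 spacer members, 137 were higher in the mutant (91.9%) and 2 were lower (1.34%) at an adjusted p below 0.05. Of all 1494 spacer positions tested, 82.5% were higher and 4.42% were lower. The median log2 fold change was 2.02 for spacer members and 1.6 for all spacer positions. One of the 2 lower members was position 102 and the other, position 6803, lay downstream of T1, where the 8 members had at most 12.5 RPM on average over the libraries. When libraries were scaled to the same spacer total, which lowers every mutant value, 57.0% of spacer members were higher and 24.2% lower, against 42.8% and 28.1% of all spacer positions. Over the whole gene, 387 members were higher (57.3%) and 131 lower (19.4%), where 40.6% of all positions tested were higher and 33.9% were lower. Under the same spacer total those counts became 118 and 484, and the median log2 fold change of all positions was -1.48, against 0.05 on the deposited scale.

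In the rRNA genes, where mature rRNA can add reads, members also stood further above other positions in the mutant. Gene members averaged 244, 239.5 and 248 RPM in the mutant libraries, against 204, 206 and 197 RPM in the WT libraries. Other gene positions went the other way, with 155 ± 0.72 RPM in the mutant and 176 ± 0.88 RPM in WT (SD, n = 3 each). The log2 ratio of members to other positions was 0.65 ± 0.03 in the mutant and 0.19 ± 0.04 in WT, a difference of 0.46. It was 0.75 ± 0.03 in the mutant and 0.24 ± 0.06 in WT for the 144 members in 18S, and 0.61 ± 0.03 in the mutant and 0.17 ± 0.04 in WT for the 376 members in 25S. The 6 members in 5.8S gave 0.38 ± 0.07 in the mutant and 0.23 ± 0.05 in WT, and that order turned under several other ways of computing the ratio. On the deposited scale, limma called 250 of the 526 gene members higher (47.5%) and 129 lower (24.5%). Of all gene positions, 29% were higher and 42.1% lower. The median log2 fold change was 0.21 for gene members and -0.16 for all gene positions. These calls depended on the scaling. Under the same spacer total, 118 of all 675 members were higher, 85 of them in the spacers, and 484 were lower, 36 of them in the spacers.

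Between 2 and 9 purines among the last 10 nucleotides, mean spacer reads in the mutant were higher in each successive class, and those in WT were not. In the spacers, positions with 3 purines averaged 51.5 ± 0.88 RPM in the mutant and 19.6 ± 1.39 RPM in WT. Positions with 7 purines, just outside the rule, averaged 107 ± 1.86 RPM in the mutant and 36.5 ± 2.73 RPM in WT. Positions with 8 purines, just inside it, averaged 136 ± 2.29 RPM in the mutant and 40.5 ± 5.24 RPM in WT, and those with 9 averaged 179 ± 2.21 RPM in the mutant and 27.4 ± 3.03 RPM in WT. In the mutant, therefore, the class with 9 purines was the highest of all spacer classes, whereas in WT the highest was the class of 41 positions with 1 purine, at 43.7 ± 0.38 RPM in the mutant and 98.2 ± 12.4 RPM in WT. A few positions carried that mean, since the median position of the class had 17.2 RPM in the mutant and 11.9 RPM in WT, and by median the highest WT class was that with 10 purines, at 98.5 RPM in the mutant and 51.2 RPM in WT. In the rRNA genes the strains crossed between 7 and 8 purines on the deposited scale. Gene positions with 7 purines averaged 208 ± 1.46 RPM in the mutant and 215 ± 1.18 RPM in WT, while those with 8 averaged 235 ± 3.26 RPM in the mutant and 198 ± 5.04 RPM in WT. The crossing depended on the scaling: under the same spacer total, every gene class was lower in the mutant, with 158 ± 0.83 in the mutant and 393 ± 29.5 in WT at 8 purines. On the deposited scale, the share of gene positions called higher was 21.6% with 3 purines, 34.5% with 7, 44.5% with 8, 55.5% with 9 and 71.4% with 10.

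**Figure D2:**
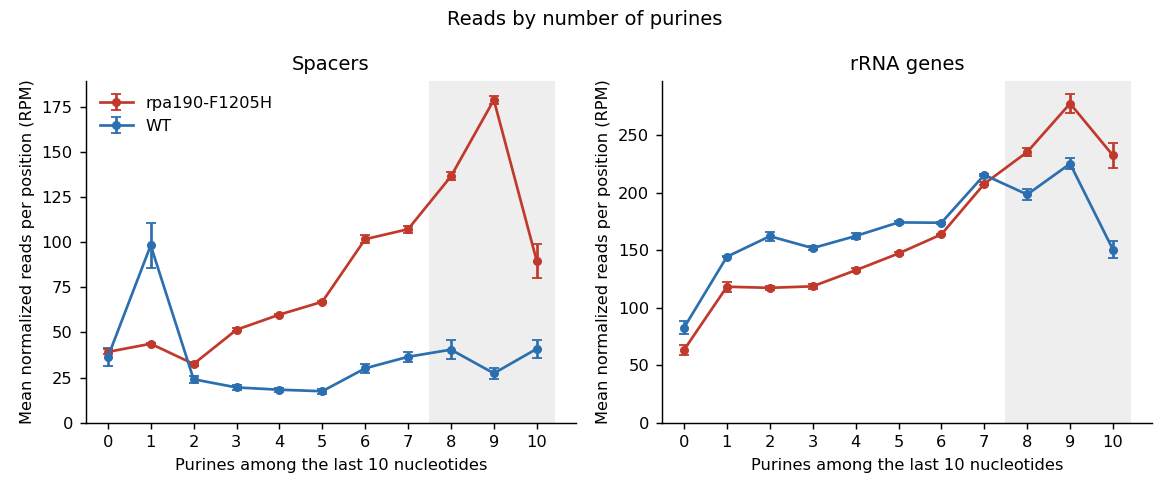
Mean reads per position (RPM) by the number of purines among the last 10 nucleotides, in the spacers and in the rRNA genes, with the mean and SD of 3 libraries per strain and purine-rich positions shaded. Mutant spacer means run up to 179 RPM at 9 purines, while WT spacer means stay below 41 RPM apart from the 1-purine class at 98.2 RPM.

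Positions with 10 purines broke the order in the spacers. The 10 such members averaged 91.4, 79.5 and 97.7 RPM in the mutant libraries and 43.6, 35 and 44.2 RPM in the WT libraries, and 8 of the 10 rose, a share of 80% that is no higher than the 82.5% of all spacer positions. All but 1 of them lie in the longest purine-rich run of the gene, 29 members at positions 624 to 652 of ETS1, which contains an uninterrupted stretch of A. The run is shown with the first 9 nucleotides in lower case and the 29 member positions in capitals.
ETS1 positions 624 to 652, chrXII:466918-466955: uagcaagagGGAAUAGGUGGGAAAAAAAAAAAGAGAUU
ITS1 positions 2572 to 2589, chrXII:464981-465007: ugggcaagaAGACAAGAGAUGGAGAGU
ITS2 positions 3222 to 3229, chrXII:464341-464357: cgauaagaaGAGAGCGU
The ETS1 run averaged 193, 183 and 195 RPM in the mutant libraries and 49.8, 55.0 and 51.2 RPM in the WT libraries. Within it the log2 fold change ranged from 0.24 to 3.92 and 27 of the 29 members rose. Because 82.5% of all spacer positions rose, the counts for these runs say little by themselves. All 18 members of the ITS1 run rose, with averages of 101, 86.9 and 91.7 RPM in the mutant libraries and 29.1, 32.7 and 30.4 RPM in the WT libraries. The 8 members of the ITS2 run all rose as well, at 146, 141 and 151 RPM in the mutant libraries and 11.6, 16.6 and 13.2 RPM in the WT libraries.

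Of the 90 spacer members with a mean of at least 50 RPM over the libraries, 86 rose (95.6%) and 1 fell with no overlap between strains, where 89% of the 481 spacer positions of any sequence above that mean rose and 6.24% fell. Positions low in WT pass that mean only through their mutant reads, so the filter favours rises in the spacers. Without it, 82.5% of all spacer positions tested rose. The counts are therefore given only to show how the named positions were chosen. The greatest rise was at position 3116 of ITS2, which read 905, 929 and 973 RPM in the mutant libraries and 9.94, 17.8 and 15.2 RPM in the WT libraries (log2 fold change 5.97 ± 0.18 SE, limma adjusted p = 5.4e-08). Its neighbour position 3114, whose last 10 nucleotides end in GAGAG, read 180.5, 199 and 205 RPM in the mutant libraries and 65.7, 103 and 76.1 RPM in the WT libraries. Position 3114 was the highest ITS2 member in WT and position 3116 the highest in the mutant. Position 558 of ETS1 read 272, 302 and 333 RPM in the mutant libraries and 3.55, 5.92 and 5.18 RPM in the WT libraries (log2 fold change 5.71 ± 0.16 SE, limma adjusted p = 4e-08). Position 538 read 504, 484 and 518 RPM in the mutant libraries and 7.45, 12.8 and 15.5 RPM in the WT libraries. The next nucleotide, position 539, was as high as 538 in the mutant and as low in WT, with a log2 fold change of 5.35 ± 0.11 SE (limma adjusted p = 3.4e-08). All 5 of the greatest spacer rises (positions 108, 538, 539, 558 and 3116) had GAGAG among their last 10 nucleotides, as did 31 of the 149 spacer members. Positions 538 and 539 share 1 copy of the word.

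The cluster at positions 102 to 108 showed how far members of a single stretch could differ. Position 106 read 709.9, 859 and 823 RPM in the mutant libraries, the highest of any ETS1 member in the mutant, and 103, 153 and 96.8 RPM in the WT libraries (log2 fold change 2.78 ± 0.17 SE, limma adjusted p = 1.7e-06). Position 108 read 367, 333 and 295 RPM in the mutant libraries and 10.6, 10.8 and 13.3 RPM in the WT libraries (log2 fold change 4.72 ± 0.12 SE, limma adjusted p = 3.8e-08). Position 102, a few nucleotides upstream, fell. The order of the 3 positions was thus 106, 102, 108 in the mutant and 102, 106, 108 in WT. In ITS1 the highest member in the mutant was position 2666, with 479.8, 462 and 473 RPM in the mutant libraries and 53.9, 70.5 and 54.4 RPM in the WT libraries, while the highest member in WT was position 2572, with 170.1, 140.5 and 154 RPM in the mutant libraries and 89.4, 102 and 93.9 RPM in the WT libraries. In ETS2 the highest member in the mutant, position 6687, lies in a stretch that the deposited table marks as cleaved by Rnt1, the RNase III that releases the 3′ end of the precursor. It read 133, 141 and 153 RPM in the mutant libraries and 18.5, 14.3 and 15.9 RPM in the WT libraries, and whether such ends were made by Pol I or by cleavage was not tested. The highest ETS2 member in WT, position 6704, read 73.6, 69.8 and 69.2 RPM in the mutant libraries and 33.7, 36 and 35 RPM in the WT libraries.

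**Figure D3:**
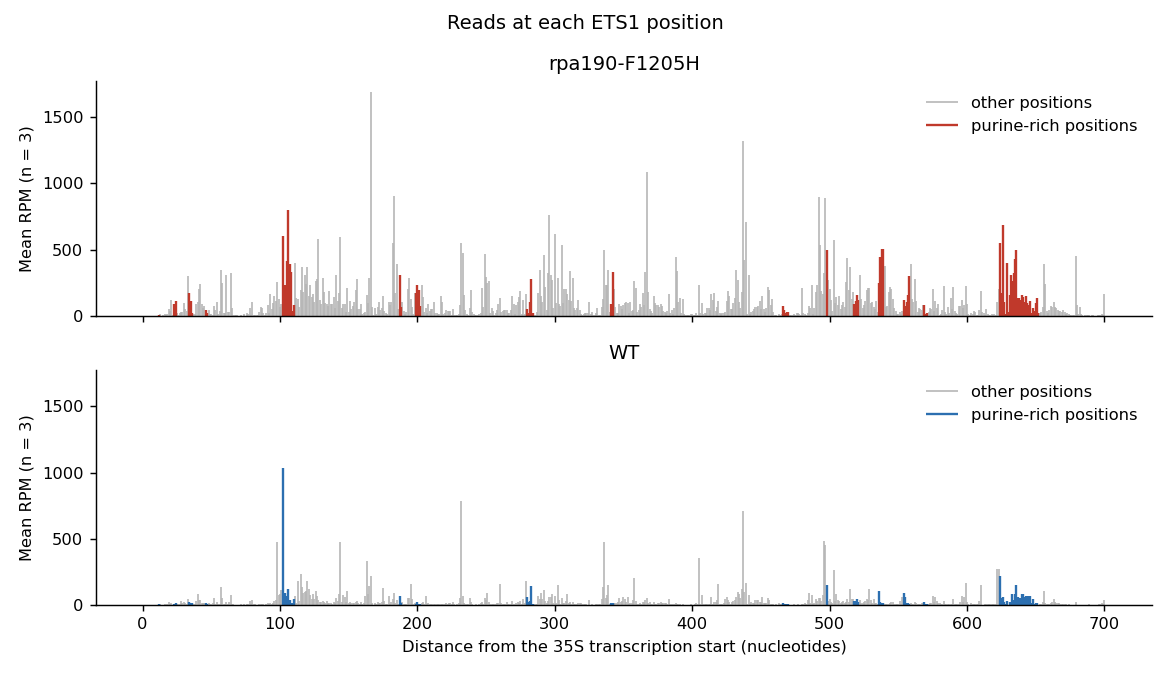
Mean reads (RPM, n = 3 libraries) at each position of ETS1 against the distance from the 35S start, in the mutant above and in WT below, with purine-rich positions coloured and other positions grey. Position 102 is the tallest purine-rich line in WT, and the mutant has several of 500 RPM or more, at 102, 106, 538, 539 and in the run that starts at 624.

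On the deposited scale, the greatest rises of gene members were smaller than those of spacer members, and their greatest falls were larger. Positions of any sequence were offset in the same way, with a median log2 fold change of 1.6 in the spacers and -0.16 in the rRNA genes. In 18S, position 2398, which has 10 purines, read 530.4, 526 and 621 RPM in the mutant libraries and 55.4, 49.8 and 57.7 RPM in the WT libraries (log2 fold change 3.34 ± 0.11 SE, limma adjusted p = 6.1e-08). In 25S, position 5006 read 678, 701 and 705 RPM in the mutant libraries and 56.8, 56.2 and 64.8 RPM in the WT libraries (log2 fold change 3.53 ± 0.09 SE, limma adjusted p = 3.9e-08). Position 5009, only a few nucleotides further, read 54.7, 69.1 and 71.6 RPM in the mutant libraries and 133, 136 and 165 RPM in the WT libraries (log2 fold change -1.14 ± 0.13 SE, limma adjusted p = 7.7e-05). Position 4100, the greatest rise of any gene member, read 246, 265 and 299 RPM in the mutant libraries and 20.6, 21.7 and 20.4 RPM in the WT libraries. The gene member that fell furthest was position 5472 of 25S, at -1.21 ± 0.11 SE (limma adjusted p = 1.3e-05). The tallest 18S members moved in opposite directions. Position 1031, the highest in WT, fell, with 1025, 1215 and 1384 RPM in the mutant libraries and 1757, 2175 and 1819.6 RPM in the WT libraries (log2 fold change -0.67 ± 0.14 SE, limma adjusted p = 0.0019). Position 1164, the highest in the mutant, rose, with 1312, 1270.2 and 1242 RPM in the mutant libraries and 395, 517 and 445 RPM in the WT libraries (log2 fold change 1.5 ± 0.11 SE, limma adjusted p = 5.4e-06), though under the same spacer total its log2 fold change was -0.060. In 25S the highest member in WT, position 3770, also fell, with 773, 839.6 and 922 RPM in the mutant libraries and 1246, 1272 and 1225 RPM in the WT libraries. The highest in the mutant, position 5860, read 1007, 1113 and 1228 RPM in the mutant libraries and 839, 912 and 768 RPM in the WT libraries. Adjacent members of 5.8S moved in opposite directions on the deposited scale: position 2905 read 301, 362 and 353 RPM in the mutant libraries and 258, 279 and 252 RPM in the WT libraries, and position 2906 read 205, 231 and 226 RPM in the mutant libraries and 337, 338 and 330 RPM in the WT libraries. The rise at 2905 lost its call without mutant replicate 2 (limma adjusted p = 0.056), and under the same spacer total both positions were lower in the mutant, with log2 fold changes of -1.20 at 2905 and -2.16 at 2906. The 3 longest runs of 25S, with 15 members each, did not move as a block: 9 members of the run at 3308 to 3322 rose and 2 fell, 2 of the run at 3617 to 3631 rose and 6 fell, and 5 of the run at 3641 to 3655 rose and 2 fell.

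By mean reads, the last nucleotide separated the spacer members in WT but hardly in the mutant. This grouping and those that follow were chosen after the values were seen, and are given as description. The 32 spacer members that ended in C or U averaged 155, 143 and 139 RPM in the mutant libraries and 8.78, 10.1 and 10.1 RPM in the WT libraries. The 117 that ended in A or G averaged 144, 143 and 151 RPM in the mutant libraries and 41.1, 49.6 and 41.4 RPM in the WT libraries. The ranges of both kinds overlapped in the mutant libraries, whereas in WT every library had far fewer reads at the pyrimidine-ended ones. By median position the kinds differed in both strains. The pyrimidine-ended members had 72.6 RPM in the mutant and 8.55 RPM in WT, and the purine-ended ones 104.5 RPM in the mutant and 21.9 RPM in WT. Positions 108, 538, 558 and 3116, among the greatest rises, are pyrimidine-ended and add to that mean in the mutant. All 32 pyrimidine-ended spacer members rose, with a median log2 fold change of 3.20, and 105 of the 117 purine-ended members rose (89.7%), with a median of 1.87, where 82.5% of all spacer positions rose. Set against other positions with the same kind of last nucleotide, pyrimidine-ended members had a log2 ratio of 0.84 ± 0.06 in the mutant and -1.24 ± 0.03 in WT, and purine-ended members 0.88 ± 0.02 in the mutant and 0.48 ± 0.08 in WT. For the 69 members ending in A the libraries of the strains overlapped in that comparison, at 0.90 ± 0.02 in the mutant and 0.87 ± 0.06 in WT. Position 102 ends in A, and without it the other 68 gave 0.85 ± 0.02 in the mutant and 0.42 ± 0.01 in WT, with no overlap, and the 116 other purine-ended members gave 0.84 ± 0.02 in the mutant and 0.18 ± 0.05 in WT. When each spacer member was compared only with positions of the same last nucleotide, the difference between strains was 0.54. In the rRNA genes the contrast was less marked, with a ratio of 0.71 ± 0.03 in the mutant and 0.01 ± 0.05 in WT for pyrimidine-ended members, and 0.63 ± 0.03 in the mutant and 0.21 ± 0.03 in WT for purine-ended ones.

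**Figure D4:**
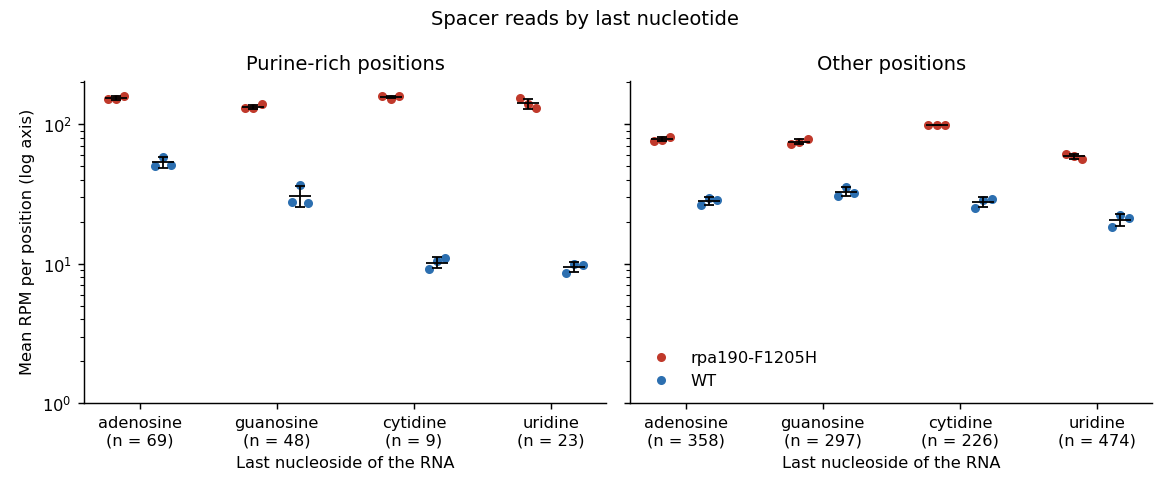
Mean reads per spacer position (RPM, log axis) by the last nucleoside of the RNA, for purine-rich positions and for other positions, with a point for each library and the mean and SD of 3 libraries per strain in black. Purine-rich positions that end in cytidine or uridine average near 10 RPM in WT and above 130 RPM in the mutant. Their median positions in the mutant are lower, at 68.6 RPM for cytidine and 76.6 RPM for uridine.

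Among purine-rich stretches, levels also differed with the number of G. Spacer members with 5 to 7 G averaged 228 ± 2.95 RPM in the mutant and 43.6 ± 5.76 RPM in WT. Those with at most 3 G averaged 91.4 ± 3.42 RPM in the mutant and 23.6 ± 0.46 RPM in WT. Their log2 ratios to other positions were 1.41 ± 0.01 in the mutant and 0.65 ± 0.10 in WT with 5 to 7 G, and 0.20 ± 0.05 in the mutant and -0.17 ± 0.08 in WT with at most 3 G. In the rRNA genes, members with 5 to 7 G had a ratio of 0.98 ± 0.05 in the mutant and 0.47 ± 0.07 in WT, and members with at most 3 G had 0.13 ± 0.06 in the mutant and -0.09 ± 0.05 in WT. In both strains and in both parts of the gene, members with 5 to 7 G stood above those with at most 3 G. The 45 spacer members with 4 G lay between them in the mutant, at 159 ± 2.47 RPM, but above both in WT, at 50.3 ± 7.57 RPM, with ratios of 1.16 ± 0.02 in the mutant and 0.95 ± 0.14 in WT. Position 102 has 4 G, and without it the other 44 averaged 149 ± 2.96 RPM in the mutant and 27.9 ± 3.32 RPM in WT, with ratios of 1.08 ± 0.03 in the mutant and 0.12 ± 0.09 in WT.

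Short words were then searched, on the RNA strand only, among the last 10 nucleotides of every position. The word GAGAG, which all 5 of the greatest spacer rises hold, overlaps AGAGA and GAGA, and it occurs in 1.52% of all 10-nucleotide windows of the gene and in 8.30% of member windows. The 31 spacer members that contain it, in 10 runs, averaged 253 ± 6.28 RPM in the mutant and 26.5 ± 4.46 RPM in WT, and all 31 rose, with a median log2 fold change of 3.28, where 89.8% of spacer members without the word and 82.5% of all spacer positions rose. Their log2 ratio to other positions was 1.77 ± 0.03 in the mutant and -0.07 ± 0.16 in WT. The 118 spacer members without it had 0.56 ± 0.03 in the mutant and 0.58 ± 0.06 in WT, where the libraries of the strains overlapped. With position 102 left out, the remaining 117 had 0.51 ± 0.04 in the mutant and 0.23 ± 0.04 in WT, with no overlap. The word was chosen with the 5 greatest rises known, and they are among the 31 members with it. The contrast between members with and without the word was thus partly set in advance, and no value without those 5 is given. The 31 other spacer positions that contain GAGAG but have fewer than 8 purines averaged 145 ± 1.54 RPM in the mutant and 13.9 ± 1.48 RPM in WT. One copy of the word lies in several successive windows, so these positions can hold the same copy as a member. Position 111 of ETS1, for example, shares its GAGAG with member 108. The 2 sets are therefore not independent of each other. In the rRNA genes, 25 members contain GAGAG, with a ratio of 0.92 ± 0.06 in the mutant and 0.21 ± 0.04 in WT, and the 501 members without it had 0.64 ± 0.03 in the mutant and 0.19 ± 0.04 in WT. The longer AGAGAG, in 21 spacer members, gave 1.56 ± 0.01 in the mutant and -0.73 ± 0.14 in WT, AGAGA gave 1.43 ± 0.02 in the mutant and -0.06 ± 0.11 in WT, and GAGA gave 1.46 ± 0.03 in the mutant and 0.10 ± 0.12 in WT. GGG, in 27 spacer members, gave 1.08 ± 0.04 in the mutant and 0.40 ± 0.02 in WT, and GGAGA, in 9, gave 1.84 ± 0.05 in the mutant and 0.80 ± 0.21 in WT. Spacer members with stretches of A had a lower ratio in the mutant than in WT. The 20 spacer members with AAAAA averaged 68.9 ± 4.95 RPM in the mutant and 31.4 ± 1.91 RPM in WT. Their ratio to other positions was -0.35 ± 0.10 in the mutant and 0.14 ± 0.19 in WT. These 20 lie in only 4 runs, among them the ETS1 run at 624 to 652. In RPM 17 of the 20 rose (85%), near the 82.5% of all spacer positions. Outside the spacer members the ratio was higher in the mutant. The 10 other spacer positions with AAAAA had -0.98 ± 0.05 in the mutant and -1.87 ± 0.14 in WT. The 14 rRNA gene members with AAAAA were below other positions in both strains, at -0.35 ± 0.16 in the mutant and -0.80 ± 0.11 in WT.

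Spacer reads were also lined up on the last member of each run, and the lowest WT values near a run end came just after it. Over the 33 spacer runs, the next-to-last position averaged 170 ± 3.96 RPM in the mutant and 34.6 ± 3.51 RPM in WT, and the last position averaged 111 ± 3.88 RPM in the mutant and 17.3 ± 2.02 RPM in WT. The first position after a run, where the number of purines falls below 8, still averaged 97.4 ± 5.25 RPM in the mutant but 10.1 ± 0.30 RPM in WT, a log2 ratio of mutant to WT of 3.28. By the rule a run ends only at a C or U, so this position always ends in a pyrimidine. Spacer members that ended in C or U averaged 9.68 ± 0.77 RPM in WT, so the low WT value here is not separate from the contrast by last nucleotide. The next position averaged 42.3 ± 3.24 RPM in the mutant and 7.79 ± 0.64 RPM in WT. The profile was uneven on both sides: the position 2 before the last averaged 99.8 ± 3.32 RPM in the mutant and 26.9 ± 1.96 RPM in WT, and the position 5 after it was again at 98.6 ± 1.17 RPM in the mutant and 30.7 ± 1.88 RPM in WT. In the rRNA genes, over 165 runs, the last position averaged 224 ± 2.80 RPM in the mutant and 174 ± 7.17 RPM in WT. On this deposited scale the order was turned 10 positions before it, at 162 ± 1.56 RPM in the mutant and 206 ± 1.03 RPM in WT. The profile was not computed under the same spacer total, where every gene class by number of purines was lower in the mutant.

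**Figure D5:**
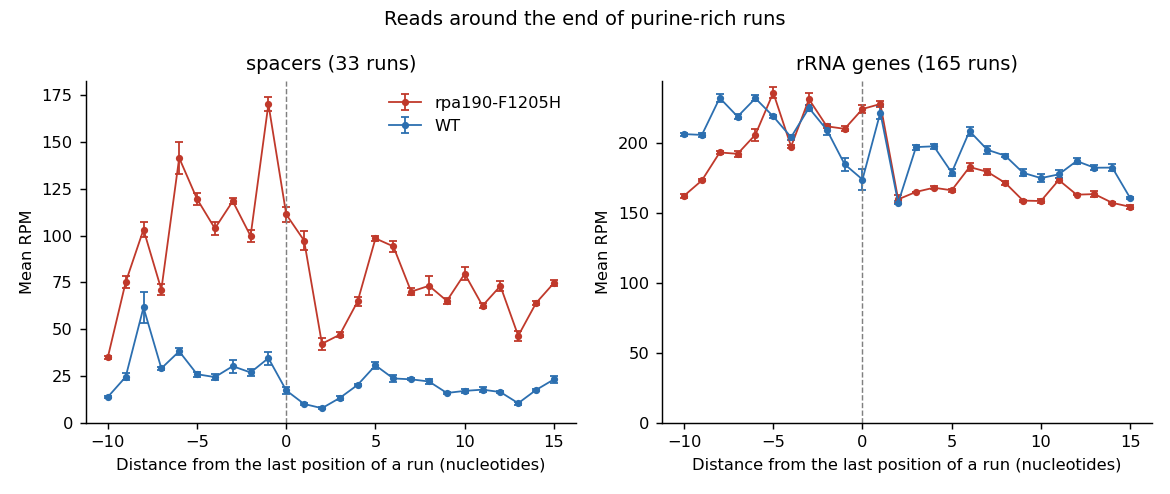
Mean reads (RPM) by distance from the last position of each purine-rich run, averaged over 33 spacer runs and 165 rRNA gene runs, with the mean and SD of 3 libraries per strain. In the spacers mutant reads are still at 97.4 RPM on the first position after the run, and at 42.3 RPM on the next.

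Members also made up more of the tallest spacer positions in the mutant. Of the 38 highest spacer positions of a library (2.5%), 11 or 12 were members in each mutant library and 2 or 3 in each WT library, where 3.76 would be members if they were spread evenly. Pyrimidine-rich positions showed the reverse, with 0 of the 38 in each mutant library and 8 or 9 in each WT library. Per position, spacer pyrimidine-rich positions had a log2 ratio to other positions of -1.12 ± 0.03 in the mutant and 1.01 ± 0.10 in WT. That contrast came from ITS2 (0.05 ± 0.01 in the mutant and 2.34 ± 0.07 in WT) and ETS2 (0.23 ± 0.04 in the mutant and 4.48 ± 0.09 in WT), whereas in ETS1 the strains overlapped, at -2.13 ± 0.08 in the mutant and -2.16 ± 0.10 in WT, and in ITS1 these positions were below others in both strains, at -1.73 ± 0.08 in the mutant and -1.12 ± 0.09 in WT. Outside their 10 nucleotides, spacer members had little further purine excess: purines made up 54.3% of the 10 nucleotides upstream of the window and 57.9% of the 10 downstream, against 51.0% and 50.6% for other spacer positions. Within the window, G and C together made up 43.0% at spacer members and 38.3% at other spacer positions. Spacer members with 3 to 7 G or C averaged 154 ± 2.31 RPM in the mutant and 37.9 ± 4.80 RPM in WT, and the 15 with at least 8 A or U averaged 72.0 ± 5.67 RPM in the mutant and 28.2 ± 3.83 RPM in WT. Replicate spread was alike for members and other positions. For spacer positions that averaged 10 RPM or more, the median coefficient of variation of members was 9.05% in the mutant and 17.3% in WT, and that of other positions was 9.44% in the mutant and 16.8% in WT.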

How the data were processed

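NET-Seq was carried out on 3 *rpa190-F1205H* and 3 WT cultures. The authors collapsed duplicates on the molecular identifier (fqtrim), trimmed adaptors (cutadapt), aligned reads to R64 (STAR) and counted 3′ ends per position (BEDTools). The submitters' processing notes name STAR 2.7.1a, SAMtools 1.6 and bedtools 2.26.0. How reads were divided between the rDNA copies, which are near-identical, is not given in the sources used here. The deposited values are RPM per position, already normalized by the authors to 1000000 reads up to T1. The authors' means, ratios and p-values stand in the same table and were not used.

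Members were found from the deposited sequence in Python 3.11.15. The members, lists and groupings were chosen with earlier results of these data known. Positions named singly were, in each region, the highest member of each strain, and the greatest rises and falls among members past an adjusted p of 0.05 with a mean of at least 50 RPM and no overlap. The test at each position was limma 3.58.1 (R 4.3.3), fitted to log2(RPM + 1), with Benjamini-Hochberg adjustment. Dividing by the smallest value gave whole reads, to within 0.02, for 99.98% of 41148 values, on which edgeR 4.0.16 and DESeq2 1.42.0 were run as alternatives. The test was checked on simulated reads for 6834 positions, of which 200 were changed 2-fold, up or down in equal number. With limma 198 of them were recovered, with 16 other calls. The simulation had far fewer changed positions than the data and no shift of the spacers as a whole, so it cannot show how the test does under such a shift. Strains were compared on averages over members by the values of their libraries, without a test. The limma p-values set the difference between strains against the spread between the cultures of a strain, an estimate shared in part over positions.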

Additional observations from a re-analysis of the deposited data

How the results depend on the processing

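Counts of member positions called higher in the mutant (387) or lower (131) were 372 to 394 and 108 to 179 under every alternative but 1. They covered a pseudocount of 0.1 or 10, positions averaging at least 10 RPM, region ends left out, leaving out each library (372 to 385 higher and 108 to 137 lower), edgeR (387 and 179), DESeq2 (384 and 170) and the replicate block (393 and 141). Scaling to the same spacer total gave 118 higher and 484 lower. Replicate numbers were not used to pair the samples in the main fit. Deviations of same-numbered libraries correlated at 0.13, 0.03 and 0.20, and those of unlike-numbered libraries at -0.16 to 0.03. Every mutant library correlated best with the WT library of its own number. WT replicates 1 and 3 did so too, while WT replicate 2 was about equally close to mutant replicates 1 and 2. A pairing of the cultures by number therefore remains possible.

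The difference between strains in the log2 ratio of members to other positions (0.43 in the spacers, 0.46 in the rRNA genes) stayed positive under every alternative. In the spacers it was 0.23 with at least 7 purines and 0.89 with at least 9, 1.20 with 1 member per run, 0.30 without pyrimidine-rich positions among the others, 0.31 from medians of log2 values and 0.39 to 0.47 without each library. Alternatives chosen after seeing the data gave 0.54 against positions of the same last nucleotide and 0.69 without position 102. In the rRNA genes it was 0.30 with at least 7 purines, 0.42 with at least 7 of the last 8, 0.40 from medians and 0.44 to 0.48 without each library. Single regions reversed in ETS1 (-0.068 with at least 7 purines), ITS1 (-0.12 with at least 7 of the last 8) and 5.8S (-0.24 with 1 member per run, -0.066 without the longest run, -0.24 from medians). The cause was not tested.

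Under the same spacer total, 6 positions that had risen changed direction: 1164 to -0.060, 2572 to -0.86, 2905 to -1.20, 3114 to -0.28, 5860 to -1.15 and 6704 to -0.53. Position 2905 lost its call without mutant replicate 2 (adjusted p = 0.056). A read was worth 0.324 to 0.493 RPM in the WT libraries, so a WT value near 10 RPM rests on few reads.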
